A study of Mus musculus with 16 samples.

Results

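TRBV5 receptors are αβ T cell receptors whose β chain uses the variable segment TRBV5, which lies on mouse chromosome 6 at positions 41062359 to 41062803 of GRCm38 and is listed in RefSeq with the synonym Tcrb-V1. A cell was counted when it had exactly 1 TRB chain, labelled TRBV5, and 1 or 2 TRA chains. These were 2094 of the 38108 cells with such a chain set, here called paired cells, of 74368 cells in all. Inside TRBV5, 3 pairs of joining segments were followed: TRBJ2-7 with TRAJ12 (111 cells), TRBJ1-4 with TRAJ22 (22 cells) and TRBJ2-4 with TRAJ21 (63 cells). In GRCm38 the TRBJ segments lie on chromosome 6 at 41543810 to 41543856 (TRBJ2-7), 41534811 to 41534861 (TRBJ1-4) and 41543362 to 41543410 (TRBJ2-4). The TRAJ segments lie on chromosome 14 at 54206552 to 54206610 (TRAJ12), 54197248 to 54197307 (TRAJ22) and 54198790 to 54198846 (TRAJ21), all from RefSeq. The other 1898 TRBV5 cells served as their comparison. The 3 pairs were selected on their recurrence among these same cells. Their frequency, their clone sizes and the likeness of their receptors are therefore given as description, with no test. Exact permutation and edgeR p-values for the pairs between groups of libraries are printed, but they are not independent of that selection.

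The sorted cells were CD44high CD4+ T cells, which have met antigen, taken from mouse spleen on day 18 after a graft of Vk*Myc (Vk12653) multiple myeloma cells on day 0. All mice had also received an antibody that depletes NK1.1-bearing cells (50 µg on days -2 and 5). The study asked what an antibody to 4-1BB (CD137), a costimulatory receptor of T cells, given at 20 µg on days 10, 13 and 16, and loss of the transcription factor Eomes do in these cells. It had 8 libraries of T cell receptor sequences in 4 groups of 2: Eomes knockout (KO) with anti-4-1BB, KO with control IgG, wild type (WT) with anti-4-1BB and WT with control IgG. Each group had 1 library from experiment 2 and 1 from experiment 1. The KO mice were Eomesfl/fl-ERT2CD4Cre in experiment 2 and Eomesfl/fl-CD4Cre in experiment 1, with Cre under the CD4 promoter per the name. The WT mice were Eomes-IRES-GFP in both. All mice of experiment 2, WT included, received tamoxifen. The kind of knockout, tamoxifen and the experiment therefore cannot be told apart. The labels do not give the number of mice behind a library, so the spread between libraries is the only error available.

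A T cell receptor β chain is made by joining a V, a D and a J segment, and an α chain by joining a V and a J segment. At each joint, bases are trimmed from the segment ends and others are added without a template, which makes the third complementarity-determining region (CDR3) different from cell to cell. CDR3 is the loop that meets the peptide held by the MHC molecule. Because several base sequences encode the same residues, a CDR3 protein that is met in several nucleotide versions was built in separate joining events, whereas cells with identical bases in both chains can descend from 1 cell.

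Libraries held 4637 to 14657 cells, 2656 to 8871 paired cells and 80551 to 445027 T cell receptor UMIs (unique molecular identifiers, each standing for a captured transcript). The experiment 1 WT anti-4-1BB library stood apart: it was the largest, and 9.33% of its cells carried 2 or more TRB chains, against 3.15% to 5.45% in the other 7. The files gave 3198 of 71086 cell barcodes in 2 or more libraries, and in no case did a shared barcode carry the same receptor. Shares, joint lengths, partners and clone sizes of TRBJ2-7 with TRAJ12, which was found mainly there, are also given without it.

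TRBV5 was the seventh most used of the 22 TRBV labels, with 1620 of all clonotypes (5.31%). Cells of a library form a clonotype when their TRB and their main TRA have the same segments and CDR3 bases. TRBV5 chains most often joined TRBJ2-7 (22.6% of TRBV5 clonotypes, against 18.1% of clonotypes with another TRBV) and TRBJ2-5 (20.6% against 14.1%). Their most frequent α joining segment was TRAJ31 (6.23% against 6.67%), followed by TRAJ12 (5.80% against 3.26%). The frequency of a TRBJ and TRAJ pair was set beside the product of their separate frequencies in TRBV5. TRBJ2-7 with TRAJ31 had 28 clonotypes against a product of 22.8, TRBJ2-5 with TRAJ22 had 24 against 17.9, TRBJ2-5 with TRAJ31 had 21 against 20.8, TRBJ2-5 with TRAJ27 had 20 against 15.5, and TRBJ2-5 with TRAJ12 had 19 against 19.4. These are 5 of the 6 pairs with the most clonotypes outside the recurrent ones, the sixth being TRBJ2-7 with TRAJ37, also with 19, against 20.8.

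The 3 recurrent pairs lay above that product. Counted by the main TRA, TRBJ2-7 with TRAJ12 had 49 clonotypes against a product of 21.2, a ratio of 2.31. TRBJ2-4 with TRAJ21 had 26 against 5.51, a ratio of 4.72, and TRBJ1-4 with TRAJ22 had 20 against 7.41, a ratio of 2.70. The same pairs of joining segments were rarer with other TRBV segments: TRBJ2-7 with TRAJ12 made up 3.02% of TRBV5 clonotypes and 0.499% of the others, TRBJ2-4 with TRAJ21 made up 1.60% and 0.419%, and TRBJ1-4 with TRAJ22 made up 1.23% and 0.301%. Without the experiment 1 WT anti-4-1BB library the shares of TRBJ2-7 with TRAJ12 were 1.08% and 0.465%. Without the experiment 2 KO IgG library those of TRBJ2-4 with TRAJ21 were 0.897% and 0.439%. Without the experiment 1 WT anti-4-1BB library, TRBJ2-7 with TRAJ12 kept 13 clonotypes against a product of 8.79, a ratio of 1.48. Without the experiment 2 KO IgG library, TRBJ2-4 with TRAJ21 kept 12 against 3.68, a ratio of 3.26, and TRBJ1-4 with TRAJ22 kept 13 against 5.97, a ratio of 2.18. The recurrent pairs also repeated few CDR3β proteins. The 49 clonotypes of TRBJ2-7 with TRAJ12 held 11 of them, while the 28 clonotypes of TRBJ2-7 with TRAJ31 held 27. TRBJ2-5 with TRAJ22 lay between, with 14 proteins in 24 clonotypes. An excess was not limited to the 3 pairs: TRBJ1-5 with TRAJ37, named after its values were seen, had 8 clonotypes against a product of 2.33, a ratio of 3.44, with 5 proteins, and TRBJ1-4 with TRAJ21 had 10 against 4.94, with 10 proteins.

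**Figure D1:**
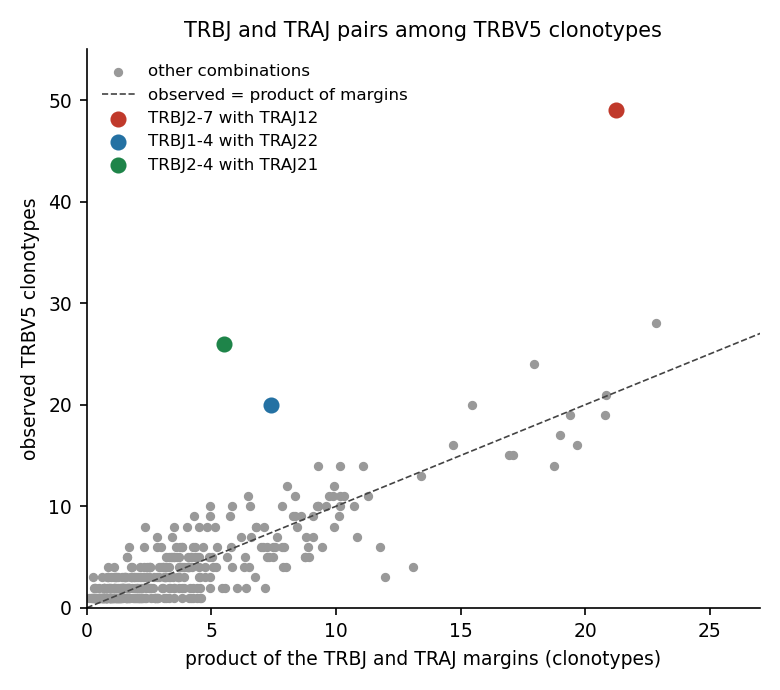
Each point is 1 TRBJ and TRAJ pair among TRBV5 clonotypes: the observed number of clonotypes (y axis) against the product of the frequencies of its TRBJ and TRAJ times the 1620 clonotypes (x axis). The 3 coloured pairs, at 49, 26 and 20 clonotypes, lie above the dashed line of equality, as do some pairs with few clonotypes.

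In TRBJ2-7 with TRAJ12, the cells carried 49 receptors, a receptor being a distinct pair of CDR3 base sequences in a library. Their most frequent CDR3β was 12 residues long and was found in 27 receptors from 4 libraries, built by 9 different nucleotide sequences. The 3 commonest versions are shown with the commonest version of the leading CDR3α, because they show how few bases separate the germline-like ends. Leading means found in the most libraries, then in the most receptors. Sequences here and in the 2 sets that follow run 5′ to 3′ from the codon of the conserved cysteine, as in the deposited contig tables. Capitals mark bases that lie between the V-like and the J-like stretch. Each stretch was extended over clonotypes with the same V or J label, while at least 50% of those still matching had the same next base. A whole stretch is therefore not always shared by most clonotypes.
TRBJ2-7 with TRAJ12, beta, version 1: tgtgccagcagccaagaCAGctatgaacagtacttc
TRBJ2-7 with TRAJ12, beta, version 2: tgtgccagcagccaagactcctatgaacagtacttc
TRBJ2-7 with TRAJ12, beta, version 3: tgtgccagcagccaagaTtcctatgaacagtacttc
TRBJ2-7 with TRAJ12, alpha: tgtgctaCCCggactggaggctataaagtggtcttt
Version 1 was carried by 7 receptors, version 2 by 5 and version 3 by 3. The β versions differ only in the middle, where the versions shown have 3, 0 and 1 bases outside the V-like and J-like stretches.

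With positions counted from the conserved cysteine as 1, 44 of the 49 receptors had the leading CDR3β or differed from it at 1 residue. The variants were S7G in 8 receptors from 3 libraries, S7T in 4, Q5R in 2, Q5H in 2 and Y8F in 1. Position 6 was aspartate in 44 of 44, and position 7 was serine in 32. The 5 remaining receptors had a CDR3β of another length. On the α side, 45 receptors had a CDR3α of 12 residues whose position 3 held 7 different residues, while position 4 was arginine in 44 of 45. The leading CDR3α, found in 3 libraries, was carried by 8 receptors and 15 cells. From 2 libraries each, T3S and T3I were carried by 10 receptors, and T3P by 9 receptors with the most cells, 33. TRAV13N-2, a TRAV segment of chromosome 14 (53253792 to 53254317), was used by 44 of the 49 receptors (89.8%). It was used by 6.67% of the other TRBV5 clonotypes with TRAJ12 and by 5.42% of clonotypes with TRAJ12 and another TRBV. TRAV7D-2 followed with 2 receptors and TRAV6-5 with 1. In the largest library alone, the 36 receptors were built from 20 β and 17 α base sequences: 8 of the β sequences met 2 or more α sequences and 8 of the α sequences met 2 or more β sequences. Without that library, 13 receptors were left, of which 8 in 3 libraries had the leading CDR3β or 1 residue off it, in 7 nucleotide sequences, and the same number used TRAV13N-2.

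TRBJ1-4 with TRAJ22 was spread most widely. Its leading CDR3β, 15 residues long, was found in 7 of the 8 libraries, in 10 of 21 receptors and 4 nucleotide versions, of which the 3 with the most receptors are shown with both leading versions of the CDR3α to show that single bases separate them.
TRBJ1-4 with TRAJ22, beta, version 1: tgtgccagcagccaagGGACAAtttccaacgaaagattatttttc
TRBJ1-4 with TRAJ22, beta, version 2: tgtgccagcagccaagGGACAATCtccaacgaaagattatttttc
TRBJ1-4 with TRAJ22, beta, version 3: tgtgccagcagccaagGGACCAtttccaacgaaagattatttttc
TRBJ1-4 with TRAJ22, alpha, version 1: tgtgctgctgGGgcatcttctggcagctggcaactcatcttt
TRBJ1-4 with TRAJ22, alpha, version 2: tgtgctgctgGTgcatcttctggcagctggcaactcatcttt
Version 1 of the β chain recurred in 7 receptors from 5 libraries, and the other versions were met once each. Single-residue variants fell at position 5 (Q5H in 2 receptors, Q5L in 2, Q5A, Q5P and Q5S in 1 each) and at position 7 (T7H and T7Q in 1 each). The CDR3α was more uniform: 16 of 21 receptors from 7 libraries shared 1 protein of 14 residues, in 5 nucleotide versions. TRAV4-3 was named in 10 receptors and its near copy TRAV4N-3 in 9, against 2.99% and 1.49% of the other TRBV5 clonotypes with TRAJ22, and TRAV4N-4 in 1. The contigs of TRAV4-3 and TRAV4N-3 differed at 7 of 258 compared bases, so the split between them depends on how the aligner assigns close copies.

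TRBJ2-4 with TRAJ21 had its leading CDR3β, also of 15 residues, in 13 of 26 receptors from 4 libraries. It was built in 8 nucleotide versions, and 3 are shown with 3 versions of the leading CDR3α, since the β versions differ over several bases and the α versions at 1 base.
TRBJ2-4 with TRAJ21, beta, version 1: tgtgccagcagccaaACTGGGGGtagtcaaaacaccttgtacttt
TRBJ2-4 with TRAJ21, beta, version 2: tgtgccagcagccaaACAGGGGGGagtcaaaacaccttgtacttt
TRBJ2-4 with TRAJ21, beta, version 3: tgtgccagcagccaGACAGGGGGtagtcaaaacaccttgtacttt
TRBJ2-4 with TRAJ21, alpha, version 1: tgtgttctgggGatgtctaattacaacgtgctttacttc
TRBJ2-4 with TRAJ21, alpha, version 2: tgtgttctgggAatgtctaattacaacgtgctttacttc
TRBJ2-4 with TRAJ21, alpha, version 3: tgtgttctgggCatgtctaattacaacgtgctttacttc
Version 1 of the β chain was carried by 6 receptors in 2 libraries and each of the other versions by 1. Q5R, in 3 receptors from 3 libraries, was the next most frequent β variant. Each further variant was met in 1 receptor, of which G7L had the most cells, 9. The leading CDR3α was shared by 19 of 26 receptors, and its 3 versions shown were carried by 10, 5 and 3 of them. TRAV6-2 was used by 19 receptors (73.1%), TRAV6-3 by 3 and TRAV6D-3 by 1, and none of the 3 was used by another TRBV5 clonotype with TRAJ21. TRAV6-3 and TRAV6D-3 did not differ in the 267 bases compared, so these 2 labels cannot be told apart here. Without the experiment 2 KO IgG library, which held 42 of the 63 cells, 12 receptors were left and TRAV6-2 was used by 9 of them.

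The joint between V-like and J-like stretches differed in length between the pairs. In TRBJ2-7 with TRAJ12 it held 4.18 ± 2.80 bases (SD over 51 clonotypes), against 10.6 ± 4.1 in the 315 other TRBV5 clonotypes with TRBJ2-7, and 3 or fewer bases in 47.1% against 5.08%. In TRBJ1-4 with TRAJ22 it held 7.48 ± 1.57 bases, against 9.62 ± 3.31 with the same TRBJ. In TRBJ2-4 with TRAJ21 it held 10.0 ± 2.3 bases, against 9.68 ± 4.22. Without the experiment 1 WT anti-4-1BB library, the joint of TRBJ2-7 with TRAJ12 held 6 ± 3.72 bases in 13 clonotypes, against 10.3 ± 4.2. The mean joint was thus shorter than that of the comparison in TRBJ2-7 with TRAJ12 and in TRBJ1-4 with TRAJ22, and slightly longer in TRBJ2-4 with TRAJ21. The α joints held 3.63 ± 3.56, 2.15 ± 0.75 and 1.33 ± 1.09 bases in the 3 pairs in the same order, against 2.19 ± 2.06, 1.65 ± 1.77 and 2.38 ± 1.93 in the other TRBV5 clonotypes with the same TRAJ. No genome was used to set the stretches, and the J-like stretch of TRBJ2-7 may run into D bases, which would shorten the joint counted.

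**Figure D2:**
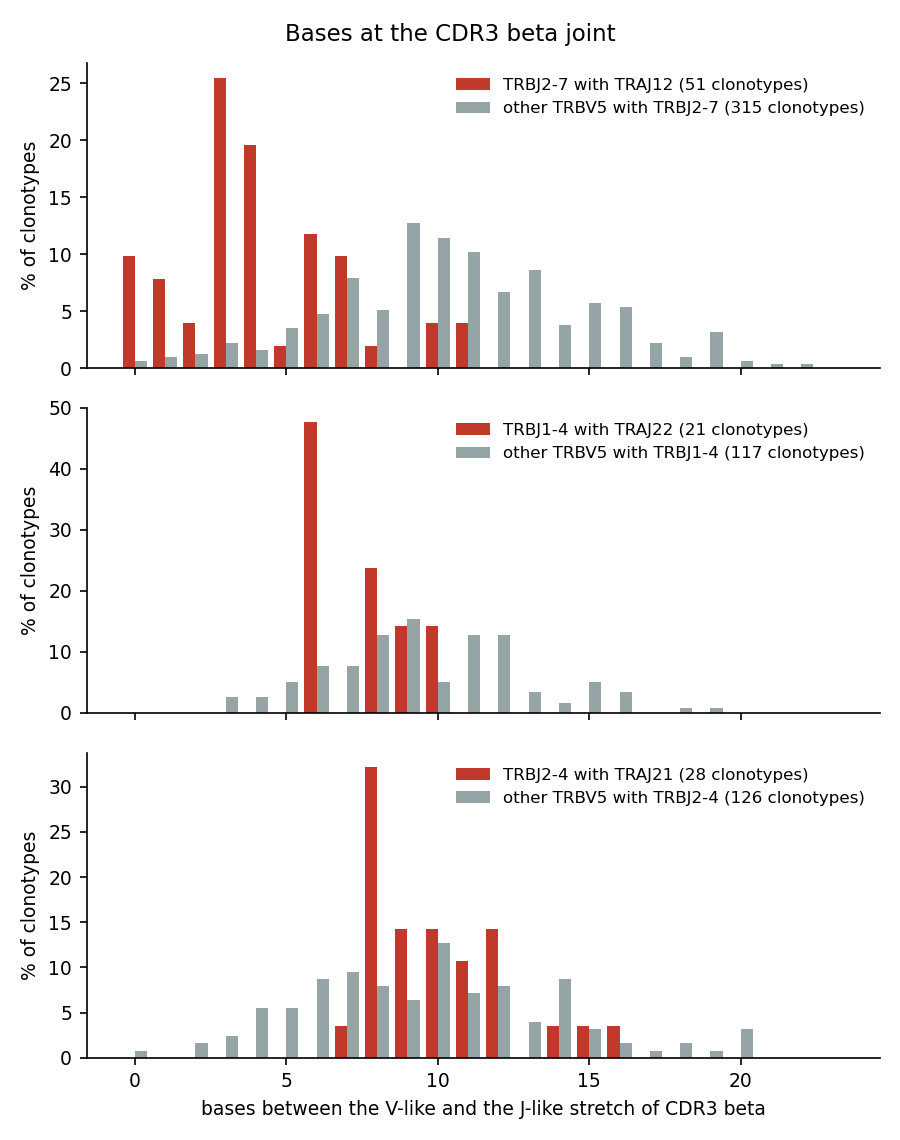
Number of bases between the V-like and the J-like stretch of CDR3β (x axis) as percent of clonotypes (y axis), for each recurrent pair in red and for the other TRBV5 clonotypes with the same TRBJ in grey. TRBJ2-7 with TRAJ12 averages 4.18 bases against 10.6, while the red and grey bars of TRBJ2-4 with TRAJ21 overlap at 10.0 and 9.68 bases.

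CDR3 length was compared inside each library, with the same joining segment on both sides. The mean CDR3β of TRBJ2-7 with TRAJ12 was 12.7 residues, against 13.9 in the other TRBV5 clonotypes with TRBJ2-7. The difference was -1.23 ± 0.76 residues (SD, n = 6 libraries), and the CDR3β was shorter in 6 of 6 libraries. These libraries held only 38, 2, 2, 1, 6 and 2 clonotypes of the pair. In the experiment 2 KO IgG library, with 2 of them, the difference was -0.18 residues. The CDR3β was longer by 0.44 ± 0.39 residues in TRBJ1-4 with TRAJ22 (n = 7 libraries, longer in 6) and by 0.36 ± 0.20 in TRBJ2-4 with TRAJ21 (n = 6 libraries, longer in 5). Here a library held 1 to 7 clonotypes of the first pair and 1 to 15 of the second. The CDR3α differed by -0.51 ± 0.79 residues for TRAJ12 (n = 6), 0.64 ± 0.38 for TRAJ22 (n = 7) and 0.15 ± 0.67 for TRAJ21 (n = 5). The near-identical receptors that make each pair recurrent share a CDR3 length, so these lengths are a description.

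TRBV5 made up 5.77% of paired cells in the experiment 2 KO anti-4-1BB library (283 of 4907) and 3.73% in that of experiment 1 (99 of 2656). In KO with IgG it made up 6.36% (381 of 5991) in experiment 2 and 5.17% (141 of 2728) in experiment 1. In WT with anti-4-1BB the shares were 3.74% (166 of 4439) in experiment 2 and 5.85% (519 of 8871) in experiment 1, and in WT with IgG they were 6.06% (270 of 4459) and 5.79% (235 of 4057). The lowest values were the experiment 1 KO anti-4-1BB library and the experiment 2 WT anti-4-1BB library, whose 95% Clopper-Pearson intervals reached 4.52% and 4.34%. The other 6 libraries lay between 5.17% and 6.36% with overlapping intervals, which cover counting error only. The interval of the experiment 1 KO IgG library, 4.37% to 6.07%, also overlapped that of the experiment 1 KO anti-4-1BB library, 3.04% to 4.52%.

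With anti-4-1BB, TRBV5 averaged 4.77% ± 1.20 of paired cells, against 5.84% ± 0.51 with IgG (SD, n = 4 libraries each). The difference of -1.07 points, lower in 3 of 4 combinations of experiment and genotype, had an exact permutation p of 0.25, where the 16 arrangements allow no p below 0.125, and an adjusted p of 0.667 over 8 share comparisons. KO libraries averaged 5.26% ± 1.13 and WT libraries 5.36% ± 1.09 (exact permutation p = 0.875, n = 4 each). Counted in clonotypes, with edgeR's quasi-likelihood test over 153 V and J segments and Benjamini-Hochberg adjustment, TRBV5 had a log2 fold change of -0.14 ± 0.22 (SE) for anti-4-1BB over IgG (adjusted p = 0.948). It was 0.04 ± 0.22 for KO over WT (adjusted p = 0.993), and the treatment effect in KO minus that in WT was 0.19 ± 0.44 (adjusted p = 0.970). For experiment 2 over experiment 1 it was 0.18 ± 0.23 (adjusted p = 0.793). Over all segments, 0.654% (1 of 153) were called for treatment, 0.654% for genotype and 0.654% for experiment, and TRBV5 was not among them. For the treatment effect in KO minus that in WT edgeR called 0, with 4 at an unadjusted p under 0.05, and DESeq2 called 0.

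**Figure D3:**
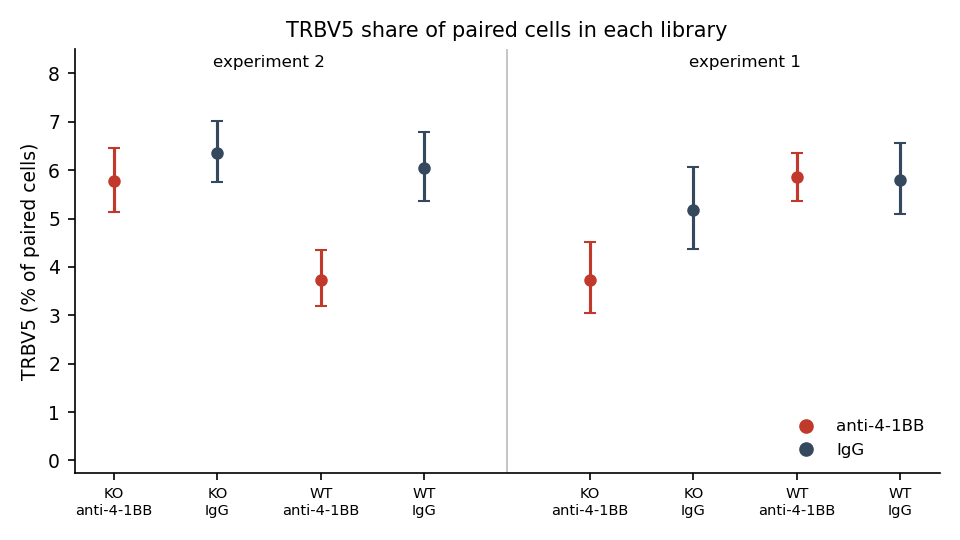
TRBV5 as percent of paired cells (y axis) in each library, with 95% Clopper-Pearson intervals for counting error. The experiment 1 KO anti-4-1BB library (3.73%) and the experiment 2 WT anti-4-1BB library (3.74%) lie below the other 6, which range from 5.17% to 6.36%.

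The TRBV segments whose share of clonotypes was ordered most like that of TRBV5 over the 8 libraries were TRBV1 (Spearman rho 0.81), TRBV13-1 (0.74) and TRBV20 (0.69). The shares of a library sum to a fixed total, so these values describe the 8 libraries and carry no test.

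TRBJ2-7 with TRAJ12 was found mainly in 1 library. It held 88 of 519 TRBV5 cells (17.0%, 95% interval 13.8% to 20.5%) in the experiment 1 WT anti-4-1BB library and 7 of 166 (4.22%) in that of experiment 2. In KO with anti-4-1BB it held 9 of 283 (3.18%) in experiment 2 and 2 of 99 (2.02%) in experiment 1. With IgG it held 4 of 381 (1.05%) in KO and 1 of 270 (0.37%) in WT of experiment 2. It was not seen in either IgG library of experiment 1, where 0 of 141 KO and 0 of 235 WT cells allow a share of up to 2.13% and 1.28% by a limit of 3 counts. The upper ends of their two-sided 95% Clopper-Pearson intervals are 2.58% and 1.56%. In each combination of experiment and genotype the anti-4-1BB library was thus above its IgG library, in experiment 1 KO by 2 cells. Of the 7 cells in the experiment 2 WT anti-4-1BB library, 6 shared 1 receptor with a CDR3β of 15 residues. Only 1 had the leading CDR3β of 12 residues. The IgG cells of the pair had a CDR3β of 13 or 14 residues, so none had the leading CDR3β or 1 residue off it. Outside the pair, IgG libraries did hold such a CDR3β. It was found in 1 paired cell of the experiment 1 WT library. It was also found in cells with a single TRB and no TRA, 1 in WT and 2 in KO of experiment 2. The mean was 6.59% ± 6.97 with anti-4-1BB and 0.36% ± 0.50 with IgG (SD, n = 4 each), a difference of 6.24 points, higher in 4 of 4 combinations. Its exact permutation p of 0.125 is the smallest the 16 arrangements allow, and the adjusted p over 8 comparisons was 0.667. The pair was selected on its recurrence, and 88 of its 111 cells came from 1 anti-4-1BB library. This p is therefore not independent of the selection, and the difference is a description. Without the pair that holds the largest library, the mean difference was 2.67 points. KO libraries averaged 1.56% ± 1.36 and WT libraries 5.39% ± 7.95 (exact permutation p = 0.5, n = 4 each), a difference of -3.82 points. It was -0.12 points without the experiment 1 WT anti-4-1BB library, and with clonotypes counted it was -1.48 points, against 3.67 points for treatment.

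The depth of these libraries moved with this difference. The median TRB chain of TRBV5 cells rested on 14 to 19 UMIs in the 4 anti-4-1BB libraries and on 10 to 11 UMIs in the IgG libraries, and its part in the result was not tested. With chains of 3 or more UMIs, 110 of the 111 cells and 49 of the 49 receptors were kept, 23 of them with 2 or more cells.

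TRBJ2-4 with TRAJ21 was found mainly in experiment 2. It held 7 of 283 TRBV5 cells (2.47%) in KO with anti-4-1BB, 42 of 381 (11.02%, 95% interval 8.06% to 14.6%) in KO with IgG, 1 of 166 (0.60%) in WT with anti-4-1BB and 10 of 270 (3.70%) in WT with IgG. In experiment 1 it held 1 of 99 cells in KO with anti-4-1BB, 0 of 141 in KO with IgG, 2 of 519 in WT with anti-4-1BB and 0 of 235 in WT with IgG. The IgG libraries were thus higher than their anti-4-1BB libraries in experiment 2 and had none in experiment 1. The mean share was 1.12% ± 0.94 with anti-4-1BB and 3.68% ± 5.197 with IgG (exact permutation p = 0.5, n = 4 each), and 3.63% ± 5.03 in KO and 1.17% ± 1.71 in WT (exact permutation p = 0.25, n = 4 each). Both adjusted p-values were 0.667 over the 8 comparisons. The differences were -2.56 points for treatment and 2.45 points for genotype. Without the experiment 2 KO IgG library they were -0.57 and 0.83 points, and with clonotypes counted they were -1.07 and 0.88 points.

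TRBJ1-4 with TRAJ22 never exceeded 8 cells of a library. It had 1, 8, 1 and 4 cells in experiment 2 (KO anti-4-1BB, KO IgG, WT anti-4-1BB, WT IgG) and 1, 1, 6 and 0 in experiment 1, in the same order. The shares ran from 0 to 2.10% of TRBV5 cells and their counting intervals overlapped. The mean was 0.78% ± 0.37 with anti-4-1BB and 1.07% ± 0.91 with IgG (exact permutation p = 0.75, n = 4 each), and 1.04% ± 0.75 in KO and 0.81% ± 0.65 in WT (exact permutation p = 0.5, n = 4 each).

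**Figure D4:**
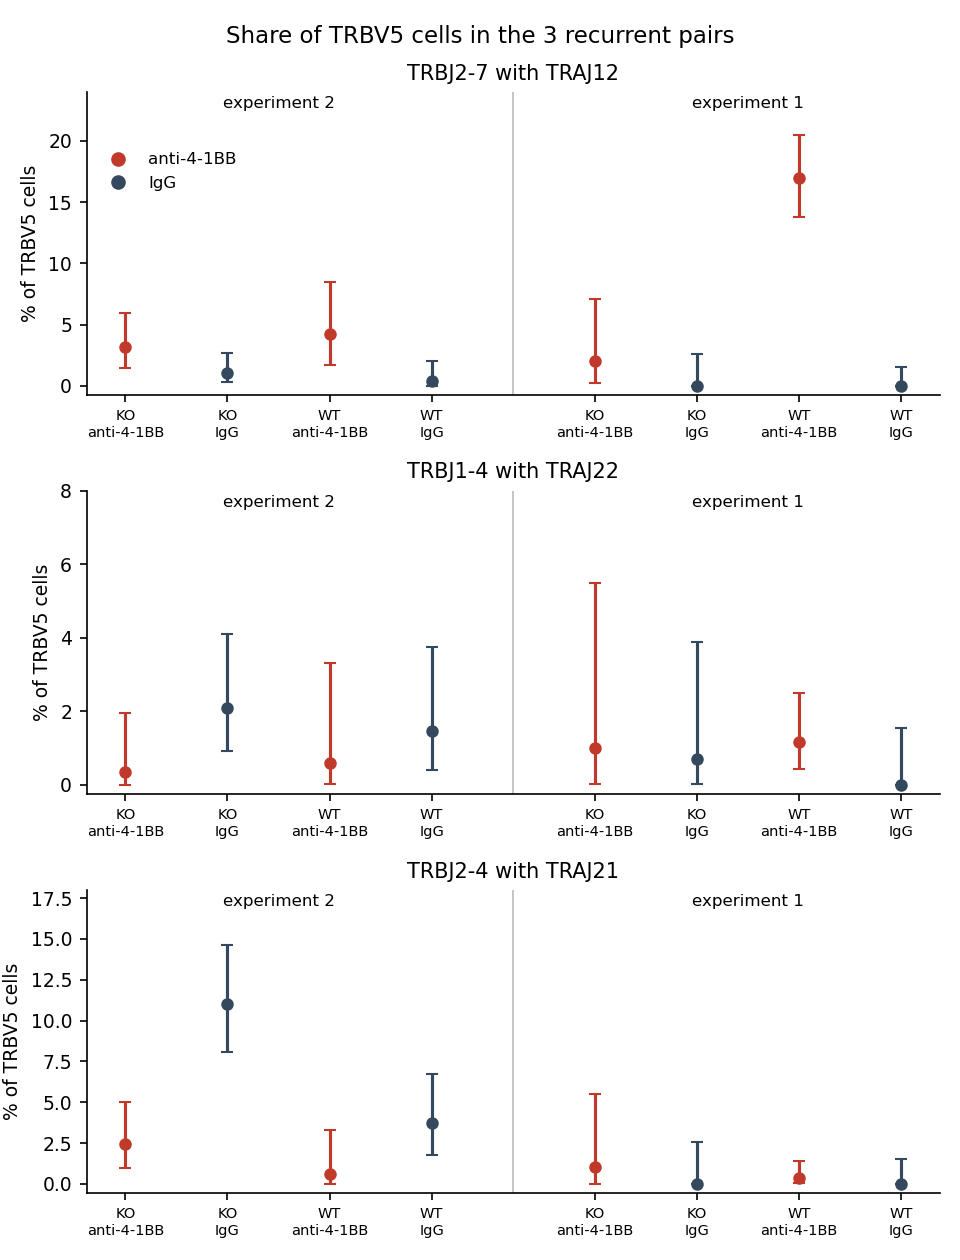
Each recurrent pair as percent of TRBV5 cells (y axis, scaled per panel) in each library, with 95% Clopper-Pearson intervals for counting error. TRBJ2-7 with TRAJ12 reaches 17.0% in the experiment 1 WT anti-4-1BB library and TRBJ2-4 with TRAJ21 reaches 11.02% in the experiment 2 KO IgG library.

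The pairs were also tested in an edgeR fit to clonotype counts of 441 combinations of TRBV, TRBJ and TRAJ. TRBJ2-7 with TRAJ12 had 6 and 2 clonotypes in the KO anti-4-1BB libraries of experiments 2 and 1 and 2 and 36 in those of WT, against 2 and 0 in KO with IgG and 1 and 0 in WT with IgG. It passed the filter of 3 clonotypes in 2 libraries only through 2 anti-4-1BB libraries, so it was admitted by the group where it is high. Its log2 fold change of 3.13 ± 0.95 (SE) for anti-4-1BB over IgG, 2.72 to 4.70 over the alternatives, is therefore a description. Without the experiment 1 WT anti-4-1BB library, or without the experiment 2 KO anti-4-1BB library, it could not be fitted. TRBJ2-4 with TRAJ21 passed only through 3 libraries of experiment 2, and its log2 fold change of 2.40 ± 0.97 for experiment 2 over experiment 1 is likewise a description. For anti-4-1BB over IgG it was -1.24 ± 0.88 (edgeR adjusted p = 0.859) and for KO over WT 1.17 ± 0.89 (edgeR adjusted p = 0.960). For TRBJ1-4 with TRAJ22 the values for experiment, treatment and genotype were 0.90 ± 0.93, -0.78 ± 0.94 and 0.11 ± 1.07, in that order, with adjusted p-values from 0.863 to 1.00. Of all combinations, edgeR called 0 (0%) for treatment, with 28 at an unadjusted p under 0.05, 0 (0%) for genotype, with 23, and 1 (0.227%) for experiment. DESeq2 called 0 in all 3. None of the 3 pairs was called.

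Clones differed between the pairs. In TRBJ2-7 with TRAJ12, 23 of 49 receptors were seen in 2 or more cells and the largest had 15. In TRBJ2-4 with TRAJ21 it was 14 of 26 receptors and the largest had 9 cells. In TRBJ1-4 with TRAJ22 it was 1 of 21, with 2 cells. Among the other TRBV5 receptors, 153 of 1522 (10.1%) had 2 or more cells, and the largest, in the experiment 2 WT anti-4-1BB library, had 37. Without the experiment 1 WT anti-4-1BB library, 5 of 13 receptors of TRBJ2-7 with TRAJ12 had 2 or more cells, and without the experiment 2 KO IgG library, 5 of 12 receptors of TRBJ2-4 with TRAJ21 did. Inside the experiment 1 WT anti-4-1BB library, TRBJ2-7 with TRAJ12 had 2.44 cells per receptor and the other TRBV5 receptors 1.14. Inside the experiment 2 KO IgG library, TRBJ2-4 with TRAJ21 had 3 cells per receptor and the other TRBV5 receptors 1.26. The 2 Q5R receptors of TRBJ2-7 with TRAJ12, both in that WT library, held 22 cells.

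**Figure D5:**
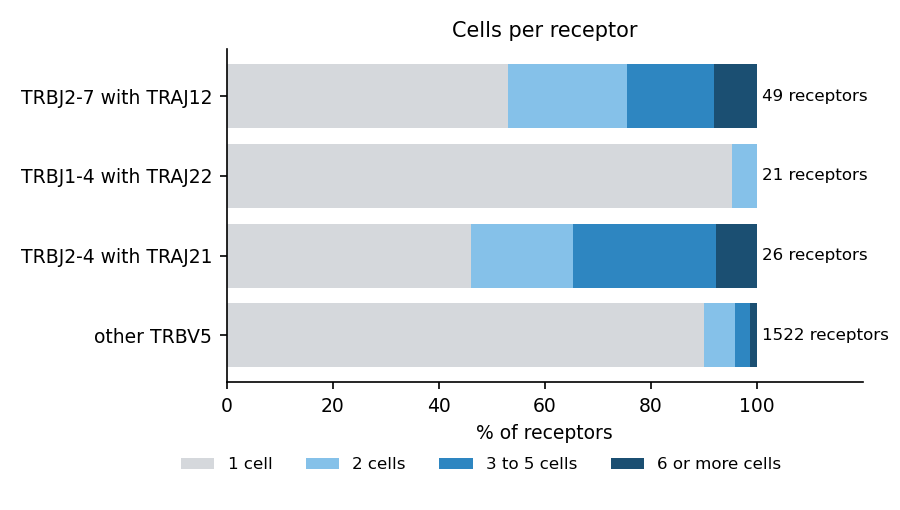
Percent of receptors (x axis) with 1, 2, 3 to 5, and 6 or more cells, over all libraries. Receptors of 1 cell make up 53.1% in TRBJ2-7 with TRAJ12 and 46.2% in TRBJ2-4 with TRAJ21, against 95.2% in TRBJ1-4 with TRAJ22 and 89.9% in the other TRBV5 receptors.

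Over all of TRBV5, cells in clonotypes of 2 or more cells were compared with those of other TRBV segments after thinning each library to 2656 paired cells. In KO with anti-4-1BB the shares were 23.1% for TRBV5 and 31.5% for the other TRBV in experiment 2, and 15.2% and 16.6% in experiment 1. In KO with IgG they were 27.6% and 20.7% in experiment 2, and 32.3% and 21.9% in experiment 1. In WT with anti-4-1BB they were 39.1% and 41.5% in experiment 2, and 16.4% and 11.5% in experiment 1. In WT with IgG they were 24.5% and 21.1% in experiment 2, and 30.3% and 18.6% in experiment 1. TRBV5 was the more clonal side in all 4 IgG libraries and in 1 of the 4 anti-4-1BB libraries, a pattern that was not tested. In these libraries the shares were also taken without thinning and without the 3 pairs. They were 28.1% against 28.5% (experiment 2 KO IgG), 26.7% against 26.4% (experiment 2 WT IgG) and 20.6% against 21.7% (experiment 1 WT anti-4-1BB). In experiment 1 with IgG they were 32.9% against 22.1% (KO) and 33.6% against 22.2% (WT). The largest TRBV5 clones there had 10 and 14 cells.

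The leading β chains were also followed beyond the pairs. With any TRBV, 84, 25 and 43 clonotypes had the leading CDR3β or 1 residue off it, in the 3 pairs in order. Of these, 53, 22 and 29 carried TRBV5. Among the TRBV5 clonotypes, 46 of 53 carried TRAJ12, 19 of 22 carried TRAJ22 and 23 of 29 carried TRAJ21, on either TRA. By the main TRA, these TRAJ segments made up 5.80%, 5.37% and 3.58% of all TRBV5 clonotypes. Each leading CDR3β was itself taken from cells with that TRAJ, so a high share is partly built in. TRAJ12 was carried by 8 of 12 without the experiment 1 WT anti-4-1BB library, against 3.49%. In the other direction clonotypes were counted over all TRBV segments, so the shares are not on the same base. Of all clonotypes with the leading CDR3α or 1 residue off it, 45 of 97, 19 of 179 and 19 of 39 carried TRBV5 with the TRBJ of the pair. Of those with TRBV5, 45 of 45, 19 of 26 and 19 of 19 carried that TRBJ. Each leading CDR3α was also taken from cells of the pair, so these shares are partly built in as well. The 3 leading proteins were found in 4, 7 and 4 libraries. Of the other TRBV5 CDR3β proteins, 1 with TRBJ2-5 was also found in 4 libraries, and the rest in 3 or fewer. In all, 14 of 1390 TRBV5 CDR3β proteins (1.01%) were found in 3 or more libraries, the second highest share among 18 TRBV labels, after the joint label of TRBV12-2 and TRBV13-2 (1.15%). Receptors identical in the bases of both chains in 2 or more libraries numbered 9 in TRBV5.

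Cells outside the rule held the same β chains. The leading CDR3β or 1 residue off it was found in 32 cells with 2 or more TRB chains for TRBJ2-7, 3 for TRBJ1-4 and 8 for TRBJ2-4, and in 9, 4 and 17 cells with a single TRB and no TRA. In the experiment 1 WT anti-4-1BB library, 23.8% of such TRBJ2-7 chains (29 chains) came from cells with 2 or more TRB chains, against 17.7% of all TRBV5 chains and 9.33% of cells there. Whether doublets add to them was not tested.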

How the data were processed

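The deposited tables list assembled T cell receptor contigs of a 10x 5′ kit, 1 table per library, with V, D, J and CDR3 labels and 2 deposited counts for each contig, its reads and its UMIs. Tools named in the submitters' processing notes are bcl2fastq 2.20.0, Cell Ranger 7.1.0 and Seurat, and the build is GRCm38. All 123611 contigs were marked as cell, confident, full length and productive. The 8 gene expression libraries were not analysed here. The members, pairs and lists were chosen with earlier results of these data known. The text names the 5 other pairs with the most clonotypes, the 3 most used TRAV segments, CDR3β variants and nucleotide versions of each pair, and the 3 TRBV segments ordered most like TRBV5; further single-residue variants were named after their values were seen.

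Clonotype counts were fitted with edgeR 4.0.16 (R 4.3.3), with 4 group means, the experiment term only where experiments were compared, totals as library size, and segments with 10 or combinations with 3 clonotypes in at least 2 libraries. DESeq2 1.42.0 was an alternative. The fits were tested on simulated data. Shares were compared by exact permutation inside strata of experiment and genotype or treatment, two-sided. CDR3 lengths were also compared by exact sign flips over libraries, whose p-values are not given because the lengths are not independent of how the pairs were selected. Joint lengths and partners without the library that holds most cells of a pair were added after seeing the data. Intervals are exact Clopper-Pearson, and a count of 0 is given the limit of 3 counts. Libraries with the same number share the batch in the labels, so experiment as a replicate block was an alternative. V-like and J-like stretches were extended while the commonest next base held in at least 50% of the clonotypes still matching, of which at least 100 had to be left. Python 3.11.15, pandas 2.3.3 and scipy 1.17.1 were used.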

Additional observations from a re-analysis of the deposited data

Results flagged for a closer look

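The share of TRBV5 among paired cells moved in opposite directions between KO and WT in the 2 experiments. KO minus WT was 0.30 (IgG) and 2.03 (anti-4-1BB) points in experiment 2, and -0.62 and -2.12 points in experiment 1, so the mean difference was 2.54 points higher in experiment 2. This difference was not tested, and the experiment also changes the kind of knockout and adds tamoxifen.

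TRBJ2-4 with TRAJ21 differed between anti-4-1BB and IgG by -8.55 (KO) and -3.10 (WT) points of TRBV5 cells in experiment 2, and by 1.01 and 0.39 points in experiment 1, which rest on 1 and 2 cells. The mean difference between experiments was -6.52 points. TRBJ1-4 with TRAJ22 did the same, with -1.75 and -0.88 points in experiment 2 and 0.30 and 1.16 in experiment 1, a mean difference of -2.04 points. For this pair, KO minus WT was also below 0 with anti-4-1BB (-0.25 and -0.15 points) and above 0 with IgG (0.62 and 0.71 points), a mean difference of -0.86 points. None of these differences was tested.

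Cells with 1 TRB and no TRA were outside the comparisons. Per 1000 such cells, the leading CDR3β of TRBJ2-7 or 1 residue off it was found in 0.579 in the highest anti-4-1BB library, against 0.486 in the highest IgG library, and that of TRBJ1-4 in 0.386 against 0.243. These rest on 3 cells or fewer per library. For TRBJ2-4 the order was the other way, with 1.05 (4 cells) in the highest anti-4-1BB library against 2.19 (9 cells) in the highest IgG library.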

How the results depend on the processing

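Of 255 alternative values of the main comparisons, 227 kept their direction and their side of the threshold. For the shares, that side was fixed in advance. Their permutation tests allow no p below 0.125, or 0.0556 with labels exchanged inside experiments, and the threshold was 0.05. The 255 also include the CDR3 lengths, which are not independent of how the pairs were selected. The count is therefore no measure of robustness for these comparisons. The KO minus WT share of TRBV5 was 0.11 points when clonotypes were counted, the KO over WT log2 fold change of TRBV5 was -0.0251 when cells were counted, and the single combination called for experiment became 0 under DESeq2, TMM factors, cells and no filter. The cause was not tested. Leaving out 1 library at a time gave, for the share of TRBV5, -0.81 to 0.57 points for KO minus WT. For TRBV5 clonotypes it gave log2 fold changes of -0.36 to 0.0170 for treatment, -0.18 to 0.20 for genotype and -0.24 to 0.51 for the treatment effect in KO minus that in WT. For TRBJ1-4 with TRAJ22 it gave -0.77 to 0.19 points for treatment, for the α length of TRBJ2-4 with TRAJ21 -0.0667 to 0.383 residues, and for combinations called for experiment 0 in each.

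Among the combinations, KO over WT of TRBJ1-4 with TRAJ22 was -0.0242 with TMM factors and -0.0420 with the replicate block, and experiment 2 over 1 of TRBJ2-7 with TRAJ12 was 0.37 with DESeq2 and 0.29 in cells. Leaving out 1 library, treatment ran from -1.24 to 1.31 for TRBJ1-4 with TRAJ22 and from -1.71 to 1.60 for TRBJ2-4 with TRAJ21. Genotype ran from -1.76 to 1.03 for TRBJ2-7 with TRAJ12, from -0.50 to 2.202 for TRBJ1-4 with TRAJ22 and from -1.67 to 3.41 for TRBJ2-4 with TRAJ21, and experiment from -1.16 to 1.56 for TRBJ2-7 with TRAJ12. With experiment as a replicate block TRBV5 had -0.14 for treatment and 0.01 for genotype, and no call of TRBV5 or of a pair changed. Among all segments, calls for treatment were 2 with the block or TMM factors and 0 with DESeq2, against 1, those for genotype were 0 with DESeq2 or cells counted, against 1, and those for experiment were 3 with at least 3 UMIs and 0 with DESeq2, against 1.

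Exchanging labels among the 4 libraries of an experiment (36 arrangements) was an alternative chosen after seeing the data. For TRBJ2-7 with TRAJ12 and treatment it gave an exact permutation p of 0.0556, the smallest it allows, and 0.444 after adjustment over 8 comparisons. The pair was selected on its recurrence, and most of its cells came from the largest library. These p-values are therefore not independent of the selection and are given as a description only. With 2 libraries a group and at most 88 cells of a pair in a library, small differences were not detectable at this depth.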
